A study of Mus musculus with 10 samples.

Results

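The genes described here encode the nuclear subunits of the mitochondrial respiratory chain and ATP synthase. They were chosen by symbol alone, as the rows named Nduf followed by a, b, c, s or v and a digit, the Sdh genes a to d, the symbols that begin with Uqcr, with Atp5 or with Cox and a digit from 4 to 8, and Ndufab1, Cyc1 and Cycs, leaving out Ndufa4l2. Of the 23924 usable gene symbols in each table, 86 met the rule: 37 of complex I, 4 of complex II, 9 of complex III, 18 of complex IV, 17 of complex V (ATP synthase) and Cycs, the gene of cytochrome c. Expression was measured by RNA sequencing of mouse pancreatic tumours transplanted into the pancreas of athymic nude mice, hosts without a thymus. The 2 tumour models are called KrasT and MycT in the labels, and all hosts were of the athymic nude strain. Untreated mice had 0 days of doxycycline (3 KrasT and 2 MycT tumours), and treated mice drank doxycycline at 100 ug/ml with 2.5% sucrose for 2 weeks (3 KrasT and 2 MycT tumours). Doxycycline turns transgenes with a tetracycline-responsive promoter on or off, and the study's title concerns tumour cells in the absence of their oncogenic driver. The labels give neither the promoter nor the construct of the transgenes, whether the tumours of a model descend from 1 donor tumour, nor the age of the mice. They name no sucrose for untreated mice, so effects of doxycycline, of sucrose and of the oncogene cannot be told apart.

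The respiratory chain passes electrons from NADH (through complex I) and from succinate (through complex II) by way of ubiquinone to complex III, from there by cytochrome c to complex IV, and finally to oxygen. Complexes I, III and IV pump protons across the inner mitochondrial membrane, and complex V uses the gradient to make ATP. Most subunits are encoded in the nucleus and imported, while a core set is encoded in mitochondrial DNA. The 13 mitochondrially encoded subunits were not found by symbol among the deposited values, so they could not be analysed. The rule goes by symbol, so Ndufa4 is grouped with complex I by its symbol but is now regarded as a subunit of complex IV. Atp5s is a coupling factor, and Atp5sl carries an ATP synthase symbol but belongs to a protein of complex I assembly.

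Sequences upstream of the start sites were available for 71 of the 86 members, from RefSeq (GRCm38.p6; 250 bases before to 50 after each start). Searched on both strands were CACGTG, the E-box that MYC and other helix-loop-helix factors bind, the palindromic NRF1 motif, bound by a regulator of mitochondrial genes, and CCGGAAGT, bound by ETS factors such as GABPA. The first was present in 7 members (9.86%, against 8.09% of 27025 genes), the second in 5 (7.04% against 1.07%) and the third in 5 (7.04% against 4.31%). These matches are letters in a window, not measured binding. The promoters of the 3 genes of the ATP synthase c-subunit are shown because these genes encode the same mature protein and their relative use is described below. That of Uqcr11, a small complex III subunit, is shown because it had the lowest change of complex III in MycT. Capitals mark the motif: CACGTG in Atp5g1 and Atp5g3, the NRF1 motif in Atp5g2 and CCGGAAGT in Uqcr11. The windows are chr11:96075582-96075881 for Atp5g1, chr15:102670998-102671297 for Atp5g2, chr2:73911277-73911576 for Atp5g3 and chr10:80406772-80407071 for Uqcr11, all on the minus strand and written 5′ to 3′.
Atp5g1: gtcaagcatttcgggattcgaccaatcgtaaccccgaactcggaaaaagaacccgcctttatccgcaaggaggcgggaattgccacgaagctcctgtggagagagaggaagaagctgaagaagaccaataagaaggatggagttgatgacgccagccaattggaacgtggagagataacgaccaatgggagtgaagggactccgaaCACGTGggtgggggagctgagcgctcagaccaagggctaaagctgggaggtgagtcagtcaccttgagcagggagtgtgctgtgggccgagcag
Atp5g2: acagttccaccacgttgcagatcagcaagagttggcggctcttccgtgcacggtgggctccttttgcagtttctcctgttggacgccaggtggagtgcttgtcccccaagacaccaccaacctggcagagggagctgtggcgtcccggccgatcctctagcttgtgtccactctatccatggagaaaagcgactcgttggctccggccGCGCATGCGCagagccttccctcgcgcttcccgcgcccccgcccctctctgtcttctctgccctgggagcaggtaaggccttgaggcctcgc
Atp5g3: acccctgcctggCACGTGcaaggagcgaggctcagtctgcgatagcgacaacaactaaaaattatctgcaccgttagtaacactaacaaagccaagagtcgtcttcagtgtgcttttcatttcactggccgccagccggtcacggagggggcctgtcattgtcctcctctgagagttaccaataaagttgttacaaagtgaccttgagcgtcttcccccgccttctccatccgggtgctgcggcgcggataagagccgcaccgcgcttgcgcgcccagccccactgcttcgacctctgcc
Uqcr11: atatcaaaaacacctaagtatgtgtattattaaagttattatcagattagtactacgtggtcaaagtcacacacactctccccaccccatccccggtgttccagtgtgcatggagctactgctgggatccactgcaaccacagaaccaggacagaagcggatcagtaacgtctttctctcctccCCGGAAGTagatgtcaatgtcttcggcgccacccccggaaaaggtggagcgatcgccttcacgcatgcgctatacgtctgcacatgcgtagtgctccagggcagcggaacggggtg
The motif begins 44 bases before the start site in Atp5g1, 42 before it in Atp5g2, 238 before it in Atp5g3 and 66 before it in Uqcr11, and each of these windows holds 1 of the motifs, with no overlap between motifs.

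Values are FPKM (fragments per length of transcript and per mapped fragments of the library) as deposited, so levels of different genes are compared per length. Read depth is unknown. Summed over genes, FPKM reached 789672 to 1018968 in untreated KrasT and 1126800 and 1517332 in untreated MycT libraries, against 513949 to 569272 and 546008 to 557227 after doxycycline, so the changes below depend on how libraries are scaled. Myc was at 0.40 and 2.85 FPKM in untreated and 8.98 and 9.54 in doxycycline MycT tumours, and without the construct these reads of the mouse gene neither check nor contradict the MycT labels. Epithelial markers (6 genes) were detected in all 10 libraries, but unevenly. Among untreated KrasT tumours, all 6 were lowest in replicate 1. There Epcam, Cdh1 and Krt7 were at 7.22, 4.67 and 7.10 FPKM. In untreated replicates 2 and 3 they were at 375 and 530 (Epcam), 370 and 291 (Cdh1) and 3348 and 1258 (Krt7). Skeletal muscle markers (12 genes) summed to 8867 FPKM in KrasT doxycycline replicate 2 and 10648 in MycT doxycycline replicate 1, to 793 in KrasT untreated replicate 1, and to 8.51 to 439 elsewhere. Counts of called members and the median difference between models are also given without these 3 libraries.

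The median member was at 147 to 213 FPKM in untreated and 99.2 to 153 in doxycycline KrasT libraries, and at 327 and 353 in untreated and 108 and 164 in doxycycline MycT libraries. Together the members took 3.28%, 2.44% and 2.42% of all FPKM in untreated KrasT libraries and 2.34%, 3.58% and 2.90% after doxycycline. In MycT they took 4.25% and 4.09% in untreated and 4.04% and 2.83% in doxycycline libraries. As a share of all FPKM, the groups therefore overlapped in KrasT and stood apart by little in MycT. Ribosomal protein genes took 49.6% and 47.0% of all FPKM in untreated MycT libraries and 21.8% and 22.2% after doxycycline. Outside ribosomal protein genes, the ribosomal RNA Rn45s and small nucleolar RNAs, the MycT members took 8.61% and 7.85% before and 5.20% and 3.84% after. In KrasT that share was 3.38% to 5.07% before and 2.90% to 4.805% after, with overlap. In bulk tissue, fewer cells of a type and less RNA per cell cannot be told apart. KrasT untreated replicate 1 was the highest of its table for 59 of the 84 members tested, and the unnumbered untreated MycT library for 50 of 84. The other 2 members, Cox7b2 and Cox8c, were at 0 FPKM, except for Cox7b2 at 0.12 in KrasT doxycycline replicate 3, and were not tested.

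In KrasT, 4 subunit genes fell and 1 rose after doxycycline (limma on log2 of FPKM + 1, adjusted p under 0.05 over 12696 genes). Among those that fell were Sdhd, Uqcrfs1 and Cox5a, of complexes II, III and IV, and the 1 that rose was Cox6b2, the testis form of a complex IV subunit. The calls are 4 of 84 against a background of 8.25% of all genes called lower, and 1 of 84 against 8.46% called higher, so the members were not called more often than genes in general. Most members nevertheless lay below 0: 70 of 84 had a negative log2 change, against 54.7% of all genes, with a median of -0.50 against -0.10 for all genes. The untreated and doxycycline libraries did not overlap in 38 of 84 members that were lower after doxycycline (23.0% of all genes) and in 2 that were higher, Cox6b2 and Atp5sl (16.8% of all genes). At an unadjusted p under 0.05, 28 members were lower (18.7% of all genes) and 2 higher (15.2%).

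In MycT, the median change was -1.27 on the log2 scale against 0.04 for all genes, and 81 of 84 members had a negative change (48.4% of all genes). With 2 tumours a group no member was called lower or higher by limma within the table, where 0.0312% of all 12834 genes were called lower and 0.00779% higher; the lowest adjusted p of a member was 0.0638. At an unadjusted p under 0.05, 54 members were lower (17.6% of all genes) and 1, Cox8b, was higher (15.7%). All libraries of the untreated group lay above those of the doxycycline group in 70 of 84 members (32.8% of all genes) and below them in 2, Cox6a2 and Cox8b (31.9%). In the limma fit of all 10 libraries, which takes the spread from both models, 40 of 84 members were called lower (12.3% of 12073 genes) and 0 higher (8.11%; 1 at an unadjusted p under 0.05). By complex these were 14 of 37 in complex I, 1 of 4 in complex II, 7 of 9 in complex III, 8 of 16 in complex IV and 10 of 17 in complex V. Of the 40, 23 were also called without the 3 libraries with the highest muscle markers (4.59% of all genes called lower) and 3 (Cyc1, Sdhd and Uqcr11) without MycT doxycycline replicate 2 (3.59%). The same 10-library fit gave 5 of 84 lower in KrasT (9.09% of all genes), adding Atp5g2, and 0 higher (7.94%; 2 at an unadjusted p under 0.05), with Cox6b2 at an adjusted p of 0.056.

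**Figure D1:**
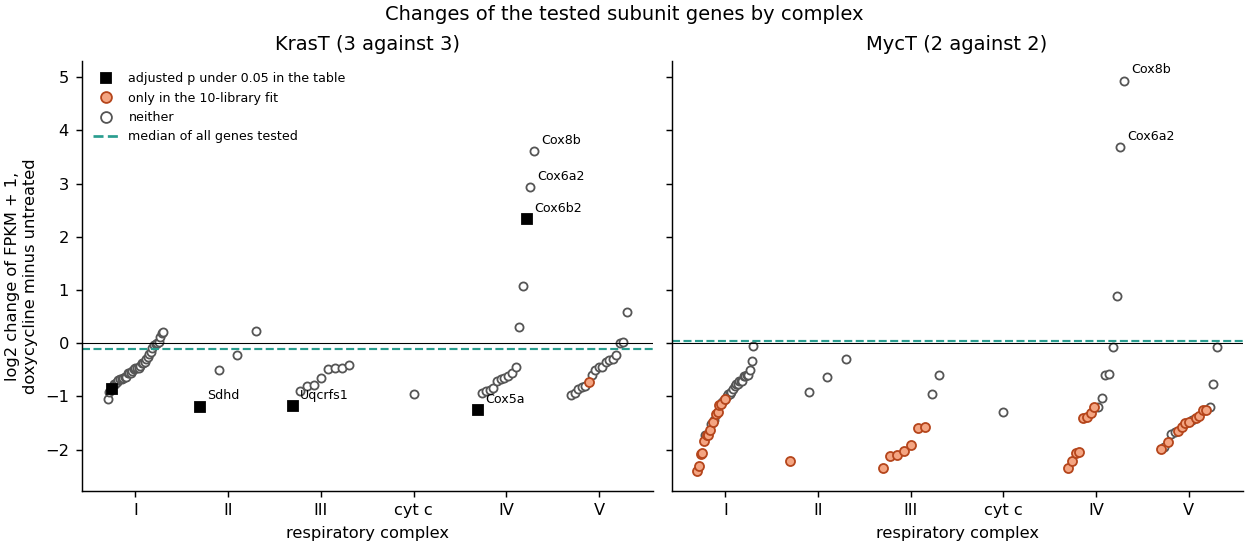
Log2 change of FPKM + 1 (doxycycline minus untreated, as deposited) for each tested member, by complex, in KrasT (left) and MycT (right). Each point is 1 gene, black squares passed limma within the table, filled circles only in the fit of 10 libraries, and the dashed line is the median of all genes tested. In KrasT the members centre on -0.50 and in MycT on -1.27, with the muscle isoform genes Cox6a2 and Cox8b above 2 in both; with equal total FPKM the medians became 0.20 and -0.031.

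The size of these changes and, for many members, their direction depend on the scaling. The members' median changed sign in KrasT and stayed below 0 in MycT under each scaling tried. With equal total FPKM, 44 of 84 MycT members had a negative change, against 81 as deposited. When each library was scaled to the same total FPKM, the median of all genes moved from -0.10 to 0.53 in KrasT and from 0.04 to 1.08 in MycT. The members' median then moved to 0.20 and -0.031. On that scale 0 of 84 KrasT members were called lower by limma (0 at an unadjusted p under 0.05; 1.83% of all genes called), and 2 higher, Atp5sl and Cox6b2 (20.1% of all genes). In the 10-library fit with equal totals, 2 MycT members were lower (Ndufb8 and Uqcr11, against 2.46% of all genes) and 3 higher (Cox8b, Ndufa1 and Ndufv3, against 40.3%). Relative to the median of all genes, the members lay at -0.40 in KrasT as deposited, -0.33 with equal totals and -0.32 with equal totals outside ribosomal protein genes. Quantile normalization turned that difference to 0.17 in KrasT. In MycT the same difference was -1.31, -1.11, -1.18 and, by quantile normalization, -0.48, so it stayed below 0 under each of these scalings. With quantile normalization the 10-library fit called 7 of 84 MycT members lower, a smaller share than the 1265 of 12073 genes called.

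**Figure D2:**
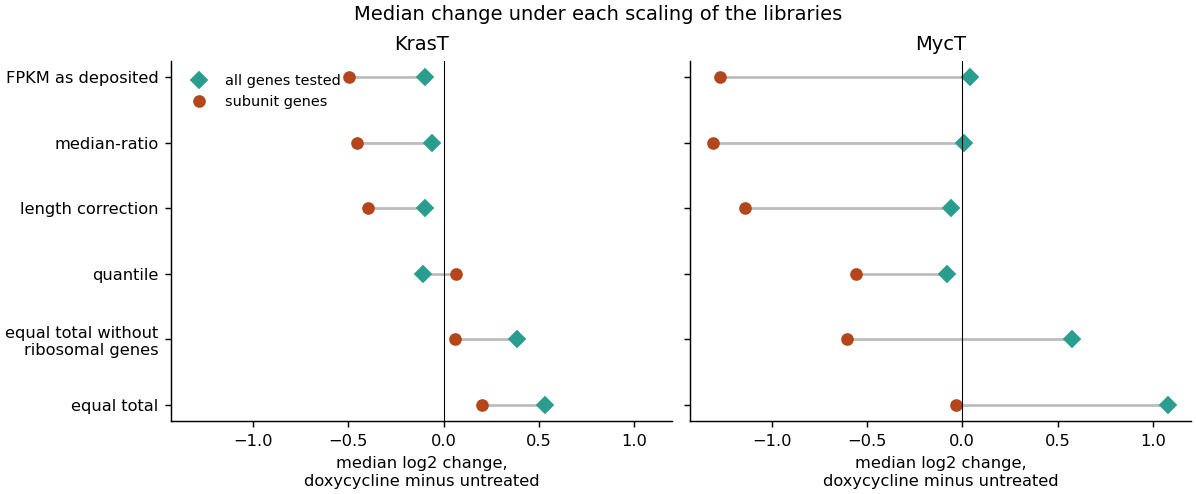
Median log2 change (doxycycline minus untreated) of the 84 tested subunit genes (circles) and of all genes tested (diamonds) under 6 scalings of the libraries, for KrasT (left) and MycT (right). In MycT the members' median relative to all genes lies between -1.32 and -0.48 in these rows, whereas in KrasT it is below 0 in 5 rows and 0.17 under quantile normalization.

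Complex I, the NADH dehydrogenase, had a median change of -0.47 in KrasT and -1.05 in MycT over its 37 genes. Its 7 core nuclear subunits, which include the carriers of the flavin and the iron-sulphur clusters, had medians of -0.36 and -0.80, and its 30 other members -0.48 and -1.08. The lowest KrasT estimates of the complex were in Ndufs4 and Ndufa7, accessory subunits of the matrix arm, at -1.04 (SE 0.37, limma adjusted p = 0.0993) and -0.92 (limma adjusted p = 0.13). Of the core subunits, Ndufs1, the large iron-sulphur subunit, was at -0.019 in KrasT and -0.60 in MycT, and Ndufv1, which binds NADH, at -0.36 and -0.96, none of them called.

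The lowest MycT changes of complex I were in accessory subunits of its membrane arm. Ndufb8 was at 1002 and 1027 FPKM in untreated MycT tumours and 220 and 166 after doxycycline. That is 0.190 times the untreated mean, a change of -2.40 (SE 0.33, adjusted p = 0.0638 in limma within the table and 0.0084 in the 10-library fit). Ndufb2 went from 492 and 610 to 130 and 93.1 FPKM in MycT (-2.31, limma adjusted p = 0.0638, 0.0155 over 10 libraries). In KrasT, Ndufb2 was at 135, 91.3 and 49.9 FPKM untreated and 64.2, 131 and 114 after doxycycline, so its groups overlapped, and its estimate of 0.21 was the highest of the complex. Ndufv3, a small accessory subunit, stood out at the other end in MycT: 136 and 144 FPKM became 127 and 142, a change of -0.06, which was 1.18 with equal total FPKM. Ndufab1, the acyl carrier protein of mitochondria, had estimates of -0.64 in KrasT and -1.32 in MycT, the latter called in the 10-library fit (limma adjusted p = 0.0264). Ndufa4 was at 1017, 543 and 594 FPKM in untreated and 286, 658 and 578 in doxycycline KrasT tumours. Its MycT levels were 4434 and 1401 before and 1710 and 494 after, so that the groups overlapped in both models.

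Complex II is succinate dehydrogenase, a citric acid cycle enzyme with 4 nuclear subunits. Its genes did not move alike. Sdhd, a membrane anchor, was at 297, 207 and 200 FPKM in untreated and 88.4, 129 and 89.2 in doxycycline KrasT tumours (-1.19, SE 0.28, limma adjusted p = 0.0325). In MycT it went from 432 and 528 to 125 and 83.6 FPKM (-2.21, SE 0.36, limma adjusted p = 0.0638 within the table and 0.0065 over 10 libraries). Neither pair of groups overlapped. Sdhc, the other anchor, had estimates of -0.50 and -0.64, and Sdhb, the iron-sulphur subunit, of -0.21 and -0.92, without a call. Sdha, the flavoprotein, was at 67.7, 72.6 and 32.8 FPKM before and 72.3, 64.4 and 55.8 after doxycycline in KrasT. In MycT Sdha was at 49.1 and 79.3 before and 57.7 and 44.3 after. Its groups overlapped in both models, with estimates of 0.22 and -0.30, and the sign of the first turned without KrasT untreated replicate 3 (-0.13).

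Complex III, ubiquinol-cytochrome c reductase, had a median of -0.65 in KrasT and -1.91 in MycT, and all 9 genes were below 0 in each. In MycT this was the lowest median of the 5 complexes. In KrasT it lay beside complex IV, which was at -0.64 over its 16 tested genes and at -0.71 over the 11 that are not tissue-restricted isoforms. Uqcrfs1, the Rieske iron-sulphur protein, was at 124, 144 and 140 FPKM in untreated and 53.8, 83.1 and 46.2 in doxycycline KrasT tumours, 0.449 times the untreated mean (-1.18, SE 0.28, limma adjusted p = 0.0335). In MycT it went from 232 and 177 to 78.1 and 57.3 FPKM (-1.58, limma adjusted p = 0.074, 0.0152 over 10 libraries). Each doxycycline library thus lay below each untreated one in both models. Cyc1, the haem-bearing cytochrome c1, gave unlike values in the 2 models. It was at 117, 114 and 80.7 FPKM in untreated and 70.5, 92.4 and 71.3 in doxycycline KrasT tumours, overlapping groups with a change of -0.40 (limma adjusted p = 0.313). Its MycT levels were 345 and 385 before and 82.4 and 85.3 after doxycycline, 0.230 times the untreated mean (-2.11, SE 0.30, limma adjusted p = 0.0638, 0.0052 over 10 libraries).

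Among the other complex III genes, Uqcr11 showed the same contrast. In MycT it was at 2027 and 1779 FPKM before and 371 and 371 after doxycycline (-2.35, SE 0.31, limma adjusted p = 0.0638, 0.0077 over 10 libraries). In KrasT it was at 581.7, 390 and 242 before and 230, 285 and 319 after, so the groups overlapped (-0.46). Uqcr10, another small subunit, had estimates of -2.11 in MycT and -0.65 in KrasT, and the hinge protein gene Uqcrh of -1.91 and -0.89. The core proteins Uqcrc1 and Uqcrc2, which face the matrix, had -0.95 and -2.02 in MycT and -0.46 and -0.78 in KrasT. Uqcrb, a ubiquinone-binding subunit, had the MycT change closest to 0 in the complex (-0.60), with overlapping groups of 583 and 311 FPKM before and 439 and 178 after. Both -0.60 and the KrasT change of -0.40 for Cyc1 turned positive with equal totals (0.64 and 0.30). Cycs, the mobile carrier between complexes III and IV, was at 50.1, 44.9 and 35.5 FPKM in untreated and 21.7, 32.8 and 14.1 in doxycycline KrasT tumours. In MycT it was at 103 and 69.5 before and 46.8 and 24.5 after. Neither pair overlapped, but limma called neither (-0.96, adjusted p = 0.099, and -1.29, adjusted p = 0.131).

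**Figure D3:**
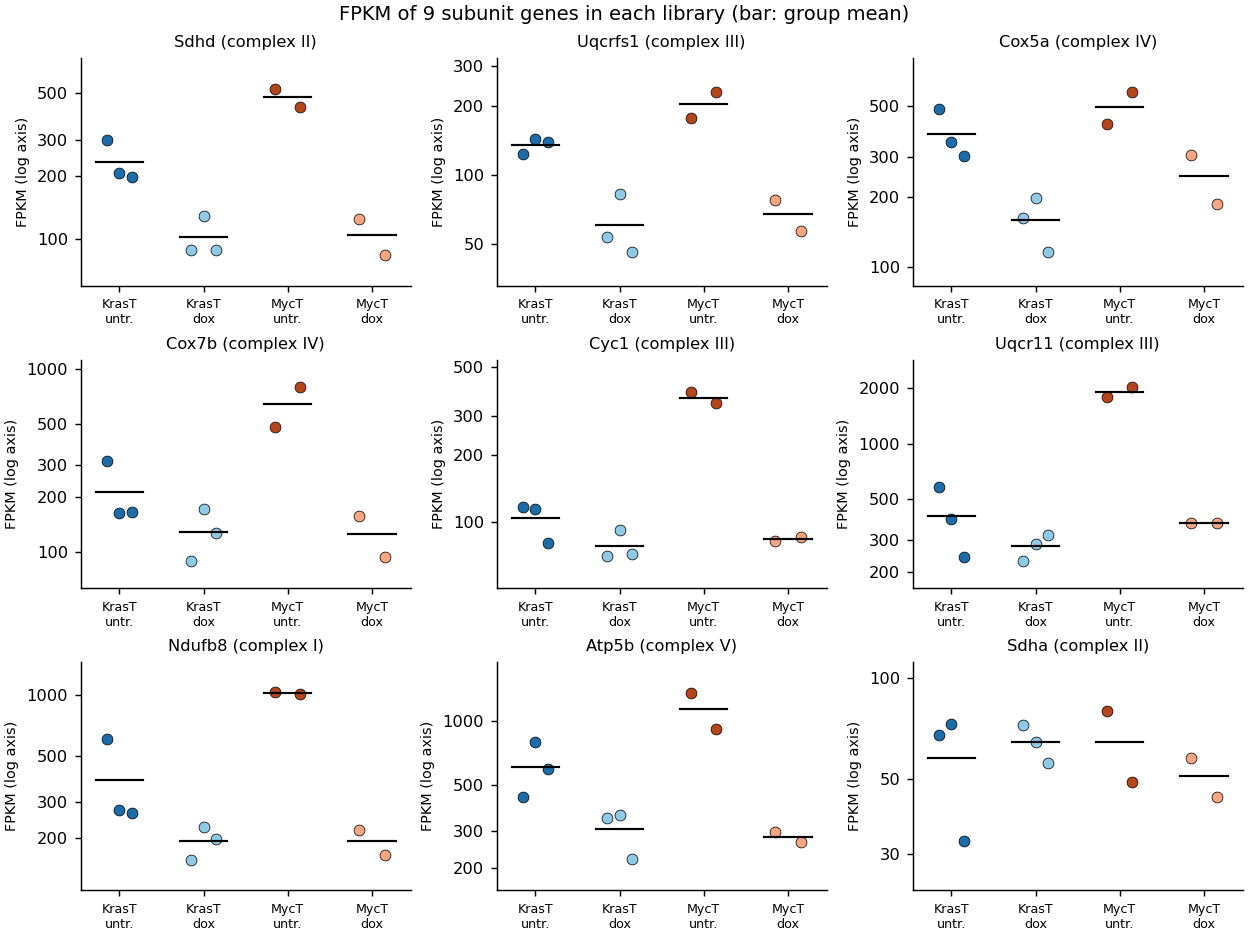
FPKM as deposited of 9 members in each library on a log axis; each point is 1 tumour, and the bar is the group mean. Sdhd, Uqcrfs1 and Cox5a are lower in all doxycycline KrasT tumours than in the untreated ones, Cyc1, Uqcr11 and Cox7b stand apart by treatment in MycT only, and Sdha overlaps in both. With equal total FPKM, Sdha in MycT turned to 0.93 and Cyc1 in KrasT to 0.30.

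A measure within each library does not depend on its scaling, apart from the pseudocount. The mean log2 level of the 9 complex III genes, relative to that of the 82 (KrasT) or 83 (MycT) detected members, was 0.48 to 0.59 in untreated KrasT tumours and 0.29 to 0.35 after doxycycline. In MycT it was 0.95 and 0.85 before and 0.35 and 0.47 after. The groups did not overlap in either model, and the difference stayed below 0 without the tissue-restricted isoforms (-0.16 in KrasT and -0.37 in MycT) and among members with a mean of at least 5 FPKM (-0.30 and -0.54). Complex V was at 0.83 and 0.86 relative to all members in untreated and at 0.60 and 0.67 in doxycycline MycT tumours, and overlapped in KrasT. The MycT difference of complex V stayed below 0 but was smaller without the tissue-restricted isoforms. Among members with a mean of at least 5 FPKM it also stayed below 0. For complex IV the direction depended on whether its tissue-restricted isoforms were counted. Complex IV was higher by 0.11 over its 14 genes detected in every KrasT library and by 0.35 over the 15 detected in every MycT library. These leave out the muscle forms Cox6a2 and Cox8b in KrasT and Cox8b in MycT, which were at 0 in some libraries. Without the tissue-restricted isoforms complex IV was lower in both models (-0.25 in KrasT and -0.21 in MycT), as complex III was (-0.16 and -0.37). These are descriptions of the libraries, with no test.

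Complex IV, cytochrome c oxidase, combines subunits made in all tissues with isoforms restricted to some. Its 16 tested genes had medians of -0.64 in KrasT and -1.20 in MycT, with a wide range. Cox5a, a subunit of the matrix side, was at 485, 348 and 301 FPKM in untreated and 163, 198 and 116 in doxycycline KrasT tumours, without overlap (-1.25, SE 0.30, limma adjusted p = 0.0373). MycT tumours had 574 and 415 FPKM before and 306 and 187 after (-1.03, adjusted p = 0.159 in limma). Cox4i1, the main form of the largest nuclear subunit, was at 1757, 1046 and 1026 FPKM before and 520.5, 771 and 712 after doxycycline in KrasT, and at 3776 and 2056 before and 662 and 685 after in MycT. Neither model's groups overlapped, and the MycT change of -2.05 was called in the 10-library fit (limma adjusted p = 0.0118). Cox7b and Cox7a2, small subunits of the membrane part, had the lowest MycT changes of the complex, -2.35 and -2.21. Cox7b went from 799 and 481 to 157 and 93.5 FPKM in MycT. In KrasT Cox7b was at 313, 163 and 165 before and 88.7, 172 and 126 after, where the groups overlapped.

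Cox6a2, Cox7a1 and Cox8b, the heart and skeletal muscle forms of Cox6a1, Cox7a2 and Cox8a, had positive estimates in both models. Cox8b was at 12.8, 0 and 0 FPKM in untreated KrasT tumours and 12.8, 183 and 8.87 after doxycycline. Its MycT values were 0 and 1.35 before and 226 and 8.67 after. The high values are in KrasT doxycycline replicate 2 and MycT doxycycline replicate 1, and limma called neither change (3.61, adjusted p = 0.125, and 4.93, adjusted p = 0.112). Cox6a2 made up 31.9% of the summed FPKM of Cox6a1 and Cox6a2 in the first of these libraries, 30.9% in the second and at most 2.71% in the other 8. Cox7a1 made up 33.1% and 44.4% of its pair there, and 20.6% in MycT doxycycline replicate 2, against 1.04% to 8.29% elsewhere. The skeletal muscle markers summed to 8867 and 10648 FPKM in the same 2 libraries, with none of the 12 at 0; in MycT untreated replicate 2 the muscle genes Myh1 and Mb were at 0. Their part in the other members' levels was not tested. These 2 libraries also had the highest mean log2 level of the tested members in their groups, 7.204 against 6.67 and 6.90, and 7.32 against 6.78.

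**Figure D4:**
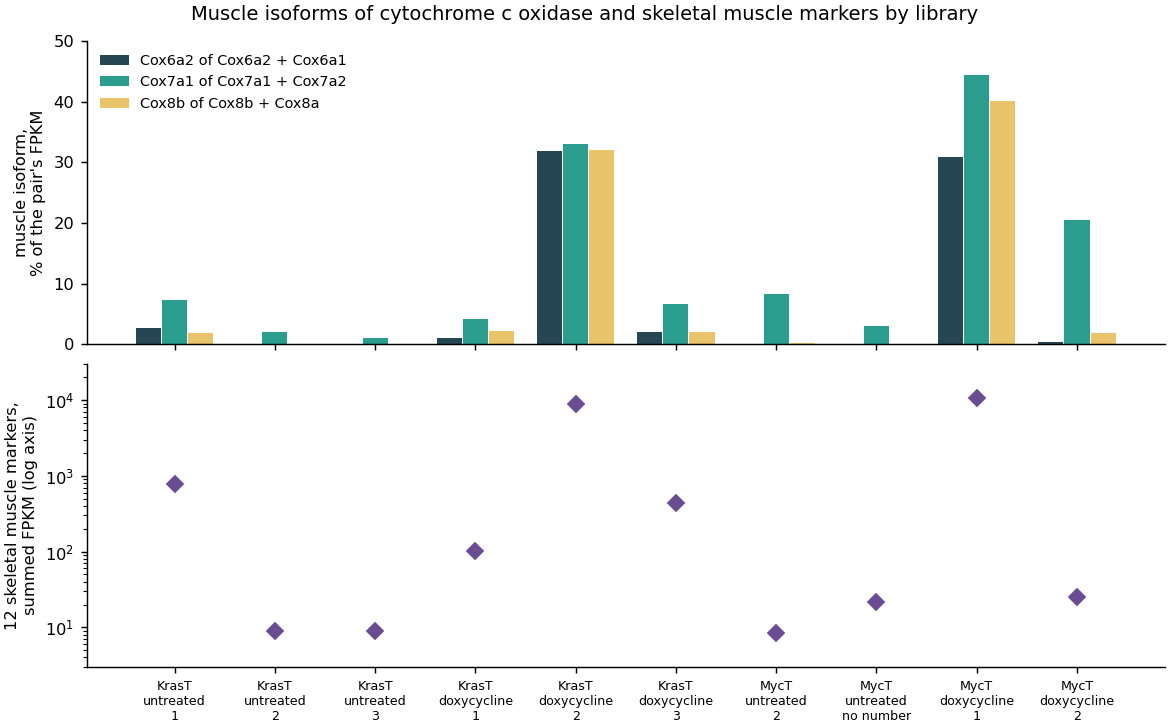
Share of each muscle isoform in the summed FPKM of its pair (top, percent) and summed FPKM of 12 skeletal muscle markers (bottom, log axis) in each of the 10 libraries. KrasT doxycycline replicate 2 and MycT doxycycline replicate 1 stand out in both panels, with Cox8b at 32.1% and 40.2% of its pair.

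Without the 2 KrasT libraries with the highest muscle markers, 1 of each group, 7 KrasT members were called lower, among them Sdhd, Uqcrfs1 and Cox5a again, and Uqcrc2, Cycs and Atp5b, the catalytic beta subunit of ATP synthase. In that fit 12.4% of all genes were called lower, a larger share than 7 of 84. Leaving out single libraries moved the count from 4 to between 0 and 7. It was 0 without KrasT untreated replicates 2 or 3 or doxycycline replicates 1 or 3, 1 (Uqcrfs1) without doxycycline replicate 2 (2.16% of all genes), and 7 without untreated replicate 1 (17.6% of all genes). Cox6b2, the testis form of Cox6b1, was at 3.42, 2.14 and 0.47 FPKM in untreated and 9.67, 7.81 and 26.7 in doxycycline KrasT tumours (2.33, SE 0.58, limma adjusted p = 0.0383). It stayed at 0.066% to 5.70% of its pair's FPKM, and in MycT its groups overlapped, with 3.98 and 27.7 before and 4.63 and 10.3 after. Cox4i2, an isoform linked to lung and low oxygen, was below 6 FPKM in all 10 libraries and overlapped in both models. Other cell types also differed by group in KrasT: 6 epithelial markers summed to 2350 to 18018 FPKM before and 263 to 1624 after doxycycline, and 8 fibroblast markers to 290 to 647 before and 3802 to 9199 after. In MycT the fibroblast sums were 415 and 35.5 before and 1623 and 2379 after, and the epithelial sums 1155 and 479 before and 1631 and 770 after. Other tissues stood out in single libraries: 10 acinar markers summed to 18846 FPKM in KrasT doxycycline replicate 3 and 27.3 to 396 in the other KrasT libraries, and to 1812 in MycT doxycycline replicate 2 and 108 to 402 in the other MycT libraries. The 9 adipocyte markers summed to 51.6 to 94.0 FPKM before and 3141 (replicate 1), 189.7 and 161 after doxycycline in KrasT, and to 74.8 and 76.5 before and 431 and 1621 after in MycT. Of these, Cidea was at 0.11, 77.6 and 80.3 FPKM before and 1.54, 13.8 and 13.6 after in KrasT. It made up most of the sum in KrasT untreated replicates 2 and 3. Endothelial sums (6 genes) were 11.8 to 24.8 before and 61.9 to 136 after in KrasT, and 6.90 and 28.4 before and 51.7 and 95.8 after in MycT. Macrophage sums (6 genes) were 137 to 629 before and 513 to 2623 after in KrasT, with overlap, and 383 and 628 before and 835 and 1839 after in MycT. The part of this makeup in the subunit changes was not tested.

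Complex V, the ATP synthase, consists of a catalytic head in the matrix, a ring of c-subunits in the membrane and stalks that join them. Over its 17 members the median was -0.45 in KrasT, with none called within the table, and -1.48 in MycT. Atp5b was at 439, 796 and 591 FPKM in untreated and 347, 358 and 221 in doxycycline KrasT tumours, without overlap (-0.97, limma adjusted p = 0.0871); Atp5f1, of the peripheral stalk, followed at -0.94 (limma adjusted p = 0.0927). In MycT Atp5b went from 925 and 1366.5 to 297 and 267 FPKM, 0.246 times the untreated mean (-1.99, SE 0.36, limma adjusted p = 0.0666, 0.0109 over 10 libraries). Atp5a1, its partner in the head, had estimates of -0.60 and -1.25. Of the 5 genes of the head and central stalk, 4 were called lower in MycT in the 10-library fit. The exception was Atp5e, the smallest, at 4952 and 3097 FPKM before and 1339 and 766 after (-1.95, limma adjusted p = 0.0521 over 10 libraries). Of the 4 genes of the peripheral stalk 3 were called there, and of the 3 small membrane subunits 0, with a median of -1.66. Atp5sl was the highest of the symbol group in both models, at 0.58 and -0.08.

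The c-ring genes Atp5g1, Atp5g2 and Atp5g3, whose promoters are printed above, were all called lower in MycT in the 10-library fit, with changes of -1.37, -1.48 and -1.58 (limma adjusted p = 0.0169, 0.008 and 0.0155). In KrasT their estimates were -0.22, -0.73 and -0.86, and Atp5g2 was called in the 10-library fit (limma adjusted p = 0.0432). Atp5g3 was the most abundant in 8 of the 10 libraries and Atp5g2 in the other 2. Atp5g1 made up 9.09%, 11.8% and 9.45% of the trio's FPKM in untreated KrasT tumours and 14.2%, 14.3% and 14.3% after doxycycline, without overlap. In MycT it made up 10.6% and 12.8% before and 12.9% and 12.8% after. The share does not depend on the scaling of a library.

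**Figure D5:**
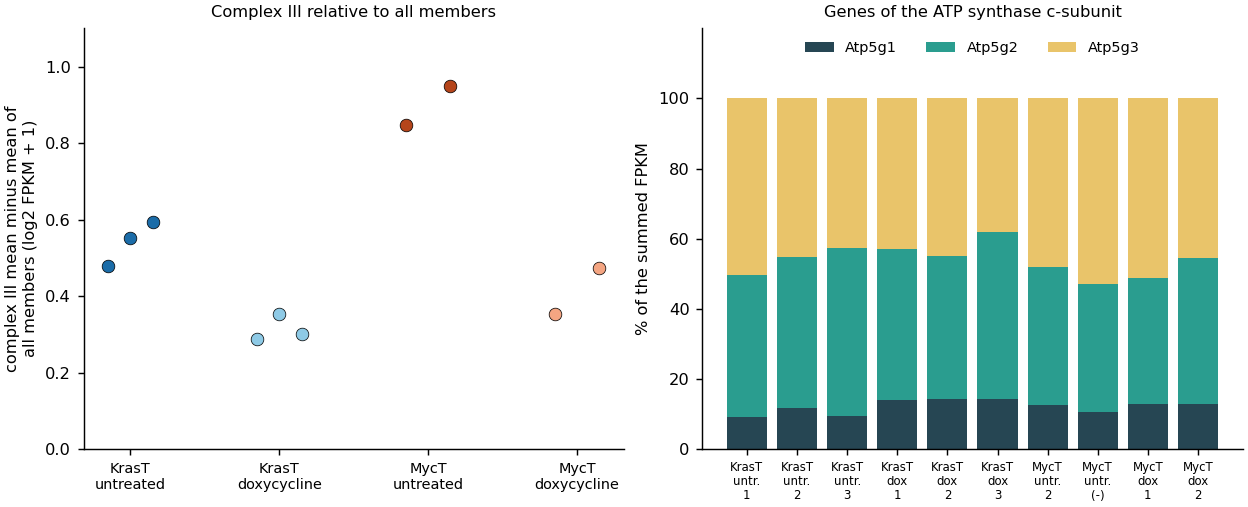
Left, mean log2 level of the 9 complex III genes minus that of all members in each library. Right, shares of Atp5g1, Atp5g2 and Atp5g3 in their summed FPKM (percent of the trio, with the unnumbered library marked by a dash in brackets). Complex III is lower relative to all members in each doxycycline library of a model than in its untreated ones, and Atp5g1 reaches 14.2% or more in the doxycycline KrasT tumours against 11.8% or less in the untreated ones.

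The difference between the models was tested as the interaction term of 1 limma fit over 10 libraries. The change was more negative in MycT than in KrasT in 76 of 84 members (50.3% of all genes), with a median difference of -0.76 against -0.01 for all genes. No member was called (0 lower against 0.0414% of all genes, 0 higher against 0.199%). At an unadjusted p under 0.05 there were 16 lower (9.45% of all genes) and 0 higher (10.5%). The lowest adjusted p belonged to Cyc1, with a difference of -1.71 (95% interval -2.55 to -0.87, limma adjusted p = 0.0704), followed by Ndufb2 at -2.52 (adjusted p = 0.0859) and Uqcr11 at -1.89 (adjusted p = 0.099). For Sdhd, which fell in KrasT and was lowest of its complex in both models, the difference was -1.02 (interval -2.02 to -0.02, limma adjusted p = 0.243). For Cox5a the estimate was 0.22 (interval -0.92 to 1.36). Without KrasT untreated replicate 1, 6 members were called: Cyc1, Uqcr10 and Uqcr11 of complex III and Ndufb2, Ndufb4 and Ndufb8 of complex I, against 5.33% of all genes called lower in that fit, while each other single omission gave 0.

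Member by member, 36 of 84 genes were lower without overlap in both models, against 13.7% of the 12073 genes tested in both. Across the 79 tested members other than the tissue-restricted isoforms, the KrasT and MycT changes had a Pearson's r of 0.48 and a Spearman's rho of 0.48. This is a description across genes, which share libraries and are not independent replicates. Transcript length was nearly unrelated to the changes of these 79 genes (Spearman's rho 0.023 in KrasT and 0.13 in MycT), and the 40 shorter ones (median 556 nt) had medians of -0.56 and -1.41 against -0.50 and -1.25 for the 39 longer ones (median 1001 nt). A relation within the members cannot show how length bears on their shift against all genes. With a length correction, that shift in the median was -0.30 in KrasT and -1.08 in MycT, against -0.40 and -1.31 as deposited.

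The other mitochondrial genes were counted by list. In KrasT, genes of the outer membrane, of protein import and of ADP/ATP and phosphate carriers were called lower in 8 of 11 (median -1.17), the most of the 6 lists measured. Over all genes, limma called 8.25% lower, and 18.7% were lower at an unadjusted p under 0.05. Only this list had a larger share called lower than all genes. Tomm20, a receptor of the import pore, was at 145, 75.1 and 89.5 FPKM before and 24.0, 31.6 and 26.6 after doxycycline (-1.83, SE 0.30, limma adjusted p = 0.0159). Tomm22, another import receptor, fell as well (-1.22, adjusted p = 0.0177 in limma). Assembly factors of complexes II to V and cytochrome c were called lower in 2 of 28: Sco2, a copper chaperone of complex IV, and Hccs, which attaches haem to cytochrome c (-0.91 and -1.11, limma adjusted p = 0.0475 and 0.0333). Limma called 0 lower among 13 complex I assembly factors, 17 genes of the citric acid cycle and pyruvate dehydrogenase, 14 of mitochondrial biogenesis and 3 associated with ATP synthase, where 0, 6, 1 and 1 had an unadjusted p under 0.05. The lowest p of these lists belonged to Acad9 (-0.45), Dlat of the pyruvate dehydrogenase (-0.89), the nuclear receptor gene Esrra (-0.78) and Atpif1, the ATP synthase inhibitor (-1.02). With equal total FPKM the outer membrane list kept 1 call and a median of -0.47, with Tomm20 at -1.14, while the medians of 4 other lists turned positive (0.44 for complex I assembly, 0.35 for other assembly, 0.34 for biogenesis and 0.074 for the citric acid cycle).

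In MycT, none of these genes was called by limma within the table, with 6, 8, 7, 14, 7 and 3 genes lower at an unadjusted p under 0.05 (17.6% of all genes). The counts called lower in the 10-library fit were, in that order, 4 of 11 for outer membrane, import and carriers, 7 of 17 for the citric acid cycle, 4 of 13 for complex I assembly, 6 of 28 for other assembly factors, 4 of 14 for biogenesis and 3 of 3 for ATP synthase associated genes. Over all genes, 12.3% were called lower in that fit. The list medians were -1.39, -0.92, -0.91, -0.95, -0.92 and -2.11, against 0.045 for all genes in that fit. With equal totals they were -0.15, 0.31, 0.24, 0.14, 0.14 and -0.87. Tomm20 was again low, from 514 and 271 to 37.0 and 36.1 FPKM (-3.32, limma adjusted p = 0.0638 within the table, 0.005 over 10 libraries). Ndufaf6, a complex I assembly factor, went from 46.7 and 41.2 to 3.01 and 5.23 FPKM in MycT (-3.17, limma adjusted p = 0.0638, 0.005 over 10 libraries). In KrasT, Ndufaf6 was at 9.24, 3.93 and 5.71 before and 3.22, 5.88 and 4.22 after, with overlap. The difference between the models was -2.78 (limma adjusted p = 0.067). Ssbp1, which binds single-stranded mitochondrial DNA, went from 132 and 66.2 to 21.9 and 20.7 FPKM in MycT (-2.09, limma adjusted p = 0.0703, 0.0206 over 10 libraries). Among the other lists, the lowest p belonged to Idh3b of the citric acid cycle (-1.48), Atpif1 (-1.60) and Atpaf1, a factor that assembles the ATP synthase head (-1.90). Uqcc1, a complex III assembly factor, had a difference between models of -1.66 (limma adjusted p = 0.0748).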

How the data were processed

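Total RNA of 10 frozen tumours was prepared with a TruSeq RNA kit, per the labels' protocols. The authors deposited FPKM values in 1 table per model; cutadapt, TopHat and the mm9 build were used, per the submitters' processing notes. The program behind the FPKM, its annotation and its strand setting are not named in the labels or notes, and depth is unknown. Columns were matched to the labels by animal number; 1 untreated MycT column matches no number and was used as a replicate without one. Rows whose symbols had turned into dates (27 per model) were left out.

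Genes at 1 FPKM or more in at least 3 KrasT or 2 MycT libraries were tested two-sided on log2(FPKM + 1) by limma 3.58.1 (R 4.3.3; eBayes with a mean-variance trend), adjusting p over all genes by Benjamini-Hochberg; the code was tested on simulated data. Nothing says how far tumours of a group are independent, so p-values measure the spread between these samples. Exact permutation could reach 0.1 at best (3 against 3) or 0.333 (2 against 2). The fit of 10 libraries spans both models' files. Its changes are taken within each model, but the spread of each gene is pooled over both. Its calls therefore assume a similar spread in the 2 models. Alternatives were other scalings, pseudocount and filters, a length correction, that fit, and leaving out each library or those rich in muscle markers. Gene lengths came from GENCODE transcripts (GRCm38). Figures were drawn with matplotlib 3.10.9.

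The members, lists and alternatives were chosen with earlier results of these data known. Named are fixed isoform pairs and catalytic subunits, per complex and model the 2 lowest and the highest changes, each called member, and per list up to 2 called genes or the 1 of smallest p; other names were chosen after their values were seen. Values of some genes are not reported here.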

Additional observations from a re-analysis of the deposited data

How the results depend on the processing

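No paired analysis was possible because each tumour has its own animal number and no number is shared between groups. Precision is limited by the 2 or 3 tumours a group and by the unknown depth. The KrasT count of members called lower was 4 and became 0 with equal total FPKM, with equal totals outside ribosomal genes and with quantile normalization; it was 0 to 7 with 1 library left out, and 7 without the 2 libraries richest in muscle markers (an alternative added after seeing the data). The count called higher (1) was 0 without a filter, under quantile normalization and in the 10-library fit, 2 under both equal totals, 0 to 2 with 1 library left out and 3 without the muscle-rich libraries. The KrasT median (-0.50) turned to 0.20, 0.063 and 0.066 under equal totals, equal totals outside ribosomal genes and quantile normalization, and relative to all genes it turned to 0.17 under the last. With these scalings Cyc1 in KrasT became 0.30, 0.16 and 0.18 and Sdhc 0.20, 0.058 and 0.11. With 1 KrasT library left out, Ndufb2 ranged from -0.17 (without untreated replicate 3) to 0.54 and Sdha from -0.13 (likewise) to 0.43.

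In the 10-library fit, 12.3% of all 12073 genes were called lower in MycT as deposited. That fit called 1559 genes lower with median-ratio scaling, 1265 with quantile normalization and 297 with equal totals. The 42 of 84 members called with median-ratio scaling were a larger share than all genes. With quantile normalization (7 of 84) and with equal totals (2 of 84), the members' share was not larger than that of all genes. In MycT the count of members called lower (0) was 1 with equal totals, 7 with equal totals outside ribosomal genes and 40 in the 10-library fit. With alternatives to that fit added after seeing the data it was 42 with median-ratio scaling, 7 with quantile normalization, 2 with equal totals, 23 without the 3 muscle-rich libraries and 18, 24, 16 and 3 without untreated replicate 2, the unnumbered untreated library, doxycycline replicate 1 and doxycycline replicate 2. The count called higher was 2 with equal totals, 3 with equal totals over 10 libraries and 1 without the muscle-rich libraries. The median (-1.27) was -0.031, -0.60 and -0.56 (-0.55 over 10 libraries) under these scalings, and relative to all genes -0.48 (-0.45 over 10 libraries) under the last. Under the same 3 scalings Ndufv3 became 1.18, 0.61 and 0.60, Sdha 0.93, 0.36 and 0.17, and Uqcrb 0.64, 0.063 and 0.19; Atp5sl became 1.07 and 0.53 under the first 2 and Sdhb 0.31 under the first. Ndufv3 was 0.072 after length correction. With 1 MycT library left out, Ndufv3 ranged from -0.14 to 0.024 (without doxycycline replicate 1), Uqcrb from -1.25 to 0.045 (without doxycycline replicate 2), Atp5sl from -0.41 to 0.25 and Sdha from -0.64 to 0.042 (both without untreated replicate 2).

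The difference between models had 0 calls, 6 without KrasT untreated replicate 1, and a median of -0.76, which was -0.23 with equal totals and -1.08 to -0.53 (-1.11 to -0.50 relative to all genes) with 1 library left out. Without the 3 muscle-rich libraries, which leaves 1 MycT doxycycline tumour, the median difference was -1.04 (-1.02 relative to all genes). Among members with a mean of at least 5 FPKM, the relative levels after minus before doxycycline were -0.055, -0.042, -0.30, 0.48 and -0.10 for KrasT complexes I to V and -0.0029, 0.62 and -0.27 for MycT complexes I, IV and V. Without tissue-restricted isoforms they were 0.085 (I), -0.16 (III), -0.25 (IV) and 0.068 (V) in KrasT and 0.17, -0.37, -0.21 and -0.10 in MycT. The share of total FPKM of KrasT complex IV changed by -0.02 percentage points and by 0.00 among members of at least 5 FPKM. The cause of these shifts was not tested. Of 903 alternative values of these results and of single genes, 740 were counted as unchanged. For single genes these were 532 values that kept their direction and their side of the threshold (43 became weaker, 27 stronger and 25 reversed). For counts and medians they were 208 values near the main one, such as 3 or 5 calls against 4 (57 moved further and 11 reversed). Uncalled genes also kept their side in fits that called no gene at all, so the tally does not measure robustness.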
